A study of Homo sapiens with 24 samples.

Results

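The genes described here are 10 negative-feedback regulators and targets of the ERK MAP kinase cascade: the dual-specificity phosphatases DUSP4, DUSP5 and DUSP6, the Sprouty genes SPRY1, SPRY2 and SPRY4, the Sprouty-related genes SPRED1 and SPRED2, and the transcription factors ETV4 and ETV5. They were chosen by name, as a readout of signalling downstream of HER2, with earlier results of these data known; no threshold on their values was used. They are 10 of the 20046 genes with a named probe, and all 19 of their probes among 47323 were taken. Of those 19 probes, 13 were above the floor, an intensity of 106, on at least 6 arrays and were tested. Every gene has at least 1 tested probe, and 3 genes have 2. The cells were SKBR3, a human breast cancer line with an amplified HER2 gene (ERBB2), measured on Illumina bead arrays. There were 4 groups of 6 arrays: knockdown of PMCA2, of NHERF1 and of HER2, and control. PMCA2 (ATP2B2) is a plasma membrane calcium pump and NHERF1 is a scaffold protein that binds membrane proteins. The labels describe 48 h of lentiviral shRNA infection as the treatment and name no hairpin for the control, nor any for the knockdowns.

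HER2 is a receptor tyrosine kinase that drives the RAS, RAF, MEK and ERK cascade. Active ERK induces its own inhibitors: DUSP phosphatases remove the activating phosphates from MAP kinases, Sprouty proteins restrain receptor signalling to RAS, and SPRED proteins bring the RAS inhibitor neurofibromin to the membrane. ETV4 and ETV5 are ETS-family transcription factors of the PEA3 group whose transcripts follow ERK activity in many cell types.

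Over the 22585 probes tested, arrays of the same group had a median pairwise correlation of 0.9956. It was 0.9776 between different knockdowns and 0.9368 between a knockdown and control. NHERF1 itself averaged an intensity of 401 in its own knockdown, against 4025 in control. The 3 probes of ATP2B2 averaged below the floor in every group, control included, with means of 92.1 to 98.9. The PMCA2 label could therefore not be checked on its target. The brightest ERBB2 probe averaged 7144 in PMCA2 knockdown, 4452 in NHERF1 knockdown and 7475 in HER2 knockdown, against 13954 in control, so it was lower in all 3 knockdowns, lowest in NHERF1 knockdown, and does not single out the HER2 label. Each chip carried 3 arrays of each group, and each group kept to its own positions on the chip, so position and group cannot be told apart. Because no label speaks of separate cultures, p-values cover the spread between arrays alone, and that spread may be technical. Of 20 luminal and SKBR3 marker genes, 13 were above the floor on all 6 arrays of each knockdown, against 19 in control. The summed intensity of that list was 33353 to 34362 in PMCA2 knockdown, 25860.3 to 26552 in NHERF1 knockdown and 30854 to 32559 in HER2 knockdown, against 62889.7 to 66665 in control. SPDEF, SCGB2A2, AZGP1 and TFAP2B were below the floor on every knockdown array, and CDH1 in all 4 groups. Of 20 placental and trophoblast markers, 15 were above the floor on all arrays in PMCA2 knockdown, 11 in NHERF1 knockdown and 8 in HER2 knockdown, against 5 in control. That list summed to 8298 to 9025, 4161 to 4321, 3004 to 3204 and 2318 to 2384 in the same order of groups. Fibroblast markers were above the floor on all arrays for 2, 4 and 3 of 10 genes in the PMCA2, NHERF1 and HER2 knockdowns and for 1 in control, and summed to between 1037 and 1394 on every array. Of 4 immune markers with a probe, CD68 and CD14 were above the floor on all arrays of every group, PTPRC was below it on all knockdown arrays and CD3E in all groups. CD14 averaged an intensity of 132 in PMCA2 knockdown, 216 in NHERF1 knockdown and 128 in HER2 knockdown, against 113 in control.

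The promoters of SPRY4, SPRED1 and SPRY1 are shown because SPRY4 and SPRED1 had the largest falls in HER2 knockdown and SPRY1 the largest fall above the floor in PMCA2 knockdown. ETV4 and ETV5 are ETS factors, so the ETS motif was among those searched. From RefSeq's table for GRCh38.p14, 10 promoter windows of 6 of the genes were used, each covering 250 bases before to 50 bases after a transcription start. SPRY4 is at chr5:142324198-142324497 on the minus strand, SPRED1 at chr15:38252586-38252885 on the plus strand, and the second listed start of SPRY1 at chr4:123398136-123398435 on the plus strand. Capitals mark the only motif match found in the 3 windows shown.
SPRY4 promoter: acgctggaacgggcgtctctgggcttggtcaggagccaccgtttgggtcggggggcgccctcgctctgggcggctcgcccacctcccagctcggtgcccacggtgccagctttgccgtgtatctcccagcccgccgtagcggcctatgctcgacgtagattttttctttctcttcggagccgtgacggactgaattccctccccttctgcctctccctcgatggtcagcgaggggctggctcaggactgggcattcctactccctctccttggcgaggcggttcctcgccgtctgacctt
SPRED1 promoter: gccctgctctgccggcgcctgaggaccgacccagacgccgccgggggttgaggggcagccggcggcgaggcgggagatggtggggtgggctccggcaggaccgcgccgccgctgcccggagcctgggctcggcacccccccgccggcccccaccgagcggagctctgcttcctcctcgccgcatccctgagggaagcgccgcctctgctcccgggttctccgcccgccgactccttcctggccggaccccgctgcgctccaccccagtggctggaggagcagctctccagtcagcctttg
SPRY1 promoter: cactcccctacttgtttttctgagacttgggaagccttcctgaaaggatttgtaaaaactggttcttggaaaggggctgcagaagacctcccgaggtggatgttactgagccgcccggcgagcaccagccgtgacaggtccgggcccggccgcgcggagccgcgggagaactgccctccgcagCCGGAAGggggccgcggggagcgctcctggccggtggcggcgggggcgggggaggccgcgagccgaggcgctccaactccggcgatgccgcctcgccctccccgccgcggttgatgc
The search covered both strands for the ETS motif CCGGAAG, the capicua motifs TGAATGAA and TGAATGGA, the cAMP-response element TGACGTCA, the AP-1 motif TGANTCA and the CArG box. The second SPRY1 window held 1 ETS match, which starts 67 bases before the listed start. The first SPRY1 window, SPRY4 and SPRED1 held no match of any of the 5. Of 35116 promoters of 300 bases, 10.3% held the ETS motif, 2.63% a capicua motif, 1.85% the cAMP-response element, 7.71% the AP-1 motif and 1.29% a CArG box. The other windows of these genes held 2 AP-1 matches, both at the second SPRED2 start, at -6 and 34 bases from it. The GC content was 65% for SPRY4, 76.3% for SPRED1 and 69.3% for SPRY1.

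Differences below are log2 values from limma with Benjamini-Hochberg adjustment over all 22585 probes tested, after background correction, with the standard error of each difference. They are given for the probe with the highest mean, and a gene counts as changed at an adjusted p under 0.05. Intensities are the deposited ones, which still hold a background of about 100 units: the olfactory receptor probes used as a stand-in for silent genes had a median of 96.9.

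DUSP5, a nuclear phosphatase that is specific to ERK, was higher in PMCA2 and NHERF1 knockdown cells and lower in HER2 knockdown cells than in control cells. Its intensity had a lowest, median and highest value of 527, 536 and 593 in PMCA2 knockdown, 332, 348 and 364 in NHERF1 knockdown, and 220.2, 227 and 232 in HER2 knockdown. In control it was 256, 271 and 304. The 4 groups did not overlap on any array. DUSP5 rose in PMCA2 knockdown by 1.27 ± 0.06 (SE, n = 6 arrays each; 2.42-fold; adjusted p = 3.29e-17) and in NHERF1 knockdown by 0.47 ± 0.06 (1.38-fold; adjusted p = 3.24e-08). In HER2 knockdown it fell by 0.41 ± 0.06 (1.33-fold; adjusted p = 3.11e-07). Within each chip all 3 differences kept their sign, and the PMCA2 difference was 1.23 on chip 1 and 1.31 on chip 2. Without background correction the differences were 0.996 in PMCA2, 0.34 in NHERF1 and -0.28 in HER2 knockdown. The placental marker list was also highest in PMCA2 knockdown, then in NHERF1 knockdown. Unlike DUSP5, its sum was higher in HER2 knockdown (3004 to 3204) than in control (2318 to 2384). The part of the placental list in the DUSP5 result was not tested. In bulk RNA, fewer cells of a type and less RNA per cell cannot be told apart.

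DUSP4, which is inducible and nuclear and acts on several MAP kinases, fell in all 3 knockdowns. It read 101, 105 and 108 in PMCA2 knockdown, 103, 112 and 116 in NHERF1 knockdown and 127, 131 and 136 in HER2 knockdown, against 159, 164 and 179 in control. Control arrays sat above every knockdown array, and in PMCA2 knockdown the floor was passed on only 3 of 6 arrays. Its mean in PMCA2 knockdown was at the floor, so the level there was at least 3.26-fold lower than in control (adjusted p = 6.11e-17). The difference was -1.49 ± 0.08 in NHERF1 knockdown (2.81-fold) and -0.73 ± 0.08 in HER2 knockdown (1.66-fold; adjusted p = 2.96e-15 and 6.18e-09). Without background correction the differences were -0.65, -0.57 and -0.33, since the background adds to every level of this dim probe. The summed luminal marker list, which includes ERBB2, was lower in all 3 knockdowns as well, though KRT8, CLDN4 and ESRP1 in it were higher. The part of this list was not tested.

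DUSP6, the cytoplasmic phosphatase that acts on ERK, was close to the floor everywhere. It read 106, 108 and 115 in PMCA2 knockdown, 104, 111 and 115 in NHERF1 knockdown and 103, 109 and 118 in HER2 knockdown. Control arrays read 117, 120.3 and 128. The HER2 knockdown range overlapped with control and the other two did not. DUSP6 fell in each, with differences of -0.53 ± 0.10 in PMCA2 knockdown, -0.43 ± 0.10 in NHERF1 knockdown and -0.48 ± 0.10 in HER2 knockdown (adjusted p = 4.37e-05, 0.000425 and 0.000135). Without background correction the same differences were -0.16, -0.13 and -0.14. Between the knockdowns DUSP6 did not pass the test, and the PMCA2 minus HER2 difference was -0.05, with a 95% interval of -0.25 to 0.16 (adjusted p = 0.743).

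SPRY4, a Sprouty that restrains growth factor signalling, had the largest fall of the 10 genes in HER2 knockdown. Its intensity was 260.5, 271 and 291 in PMCA2 knockdown, 163, 169.8 and 177 in NHERF1 knockdown and 123, 131 and 135 in HER2 knockdown. In control it was 302, 320.2 and 365. HER2 knockdown was the lowest group, NHERF1 knockdown lay above it, PMCA2 knockdown next and control highest, with no overlap between neighbours. The SPRY4 difference from control was -2.35 ± 0.07 in HER2 knockdown (5.11-fold; adjusted p = 5.36e-21), -1.45 ± 0.07 in NHERF1 knockdown (2.74-fold; adjusted p = 2.67e-16) and -0.34 ± 0.07 in PMCA2 knockdown (1.27-fold; adjusted p = 0.000108). In HER2 knockdown the difference was -2.34 on chip 1 alone and -2.36 on chip 2 alone. Without background correction it was -1.33.

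SPRY1, another Sprouty, had its largest fall in PMCA2 knockdown. It read 217, 223 and 237 in PMCA2 knockdown, 236, 250.5 and 269 in NHERF1 knockdown and 401, 419.9 and 435 in HER2 knockdown, against 507, 559 and 574 in control. Control arrays were above every knockdown array, and the PMCA2 and NHERF1 arrays overlapped with each other. The SPRY1 difference from control was -1.71 ± 0.05 in PMCA2 knockdown (3.27-fold; adjusted p = 1.5e-20), -1.48 ± 0.05 in NHERF1 knockdown (2.78-fold; adjusted p = 4.38e-19) and -0.47 ± 0.05 in HER2 knockdown (1.39-fold; adjusted p = 1.16e-08). The differences on chip 1 alone were -1.72, -1.38 and -0.46, and on chip 2 alone -1.70, -1.57 and -0.49.

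SPRY2, a further Sprouty, moved little. Its intensity was 136, 147 and 152 in PMCA2 knockdown, 145, 153 and 157 in NHERF1 knockdown and 122, 128 and 134 in HER2 knockdown, against 135, 140.3 and 147 in control. HER2 knockdown arrays lay below all control arrays, while the other two knockdowns overlapped with control. SPRY2 fell by 0.33 ± 0.07 in HER2 knockdown (adjusted p = 0.000234), with an adjusted p of 0.0514 on chip 2 alone, and rose by 0.27 ± 0.07 in NHERF1 knockdown (adjusted p = 0.00159). In PMCA2 knockdown the difference was 0.12, with a 95% interval of -0.02 to 0.27 (adjusted p = 0.149).

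SPRED1, which binds neurofibromin and inhibits RAS, fell in all 3 knockdowns by more than 2-fold. It read 211, 221 and 249 in PMCA2 knockdown, 226, 237 and 248 in NHERF1 knockdown and 169, 189 and 206 in HER2 knockdown, against 477, 501 and 517 in control. No knockdown array reached the control range. The SPRED1 difference from control was -1.55 ± 0.07 in PMCA2 knockdown (2.92-fold; adjusted p = 8.35e-17), -1.43 ± 0.07 in NHERF1 knockdown (2.69-fold; adjusted p = 5.23e-16) and -1.97 ± 0.07 in HER2 knockdown (3.93-fold; adjusted p = 3.56e-19). SPRED2, its relative, differed little from control. It read 402, 431 and 465 in PMCA2 knockdown, 447, 471 and 526 in NHERF1 knockdown and 389, 476 and 508 in HER2 knockdown, against 465, 473 and 514 in control. SPRED2 fell by 0.19 ± 0.07 in PMCA2 knockdown (adjusted p = 0.0169), but with adjusted p of 0.0702 and 0.205 on chips 1 and 2 alone. Its difference was -0.00 in NHERF1 knockdown (95% interval -0.14 to 0.14, adjusted p = 0.992) and -0.05 in HER2 knockdown (-0.19 to 0.09, adjusted p = 0.547).

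ETV4 fell in all 3 knockdowns. Its intensity was 123, 129 and 130.0 in PMCA2 knockdown, 107, 113 and 119.5 in NHERF1 knockdown and 109.9, 115 and 126 in HER2 knockdown, against 142, 147 and 158 in control. Control arrays were above all knockdown arrays. The ETV4 difference from control was -0.53 ± 0.09 in PMCA2 knockdown (1.44-fold; adjusted p = 1.23e-05), -1.06 ± 0.09 in NHERF1 knockdown (2.08-fold; adjusted p = 6.6e-11) and -0.96 ± 0.09 in HER2 knockdown (1.95-fold; adjusted p = 4.26e-10). Without background correction the differences were -0.21, -0.38 and -0.35. ETV5 was above the floor in PMCA2 knockdown alone. It read 129, 138 and 146 in PMCA2 knockdown, where all 6 arrays were above the floor, 94.0, 101 and 105 in NHERF1 knockdown and 89.7, 94.1 and 100.4 in HER2 knockdown, against 91.2, 93.7 and 95.7 in control. ETV5 passed the filter only through the PMCA2 knockdown arrays, so it had to differ there, and its test in that comparison adds nothing to that. The level there was at least 2.25-fold higher than in control, while without background correction the difference was 0.56. In NHERF1 knockdown all 12 arrays compared were below the floor, so the call of 0.17 (adjusted p = 0.0278) is of a gene with no level above background. The placental marker list was highest in PMCA2 knockdown too; its part in the ETV5 level was not tested.

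**Figure D1:**
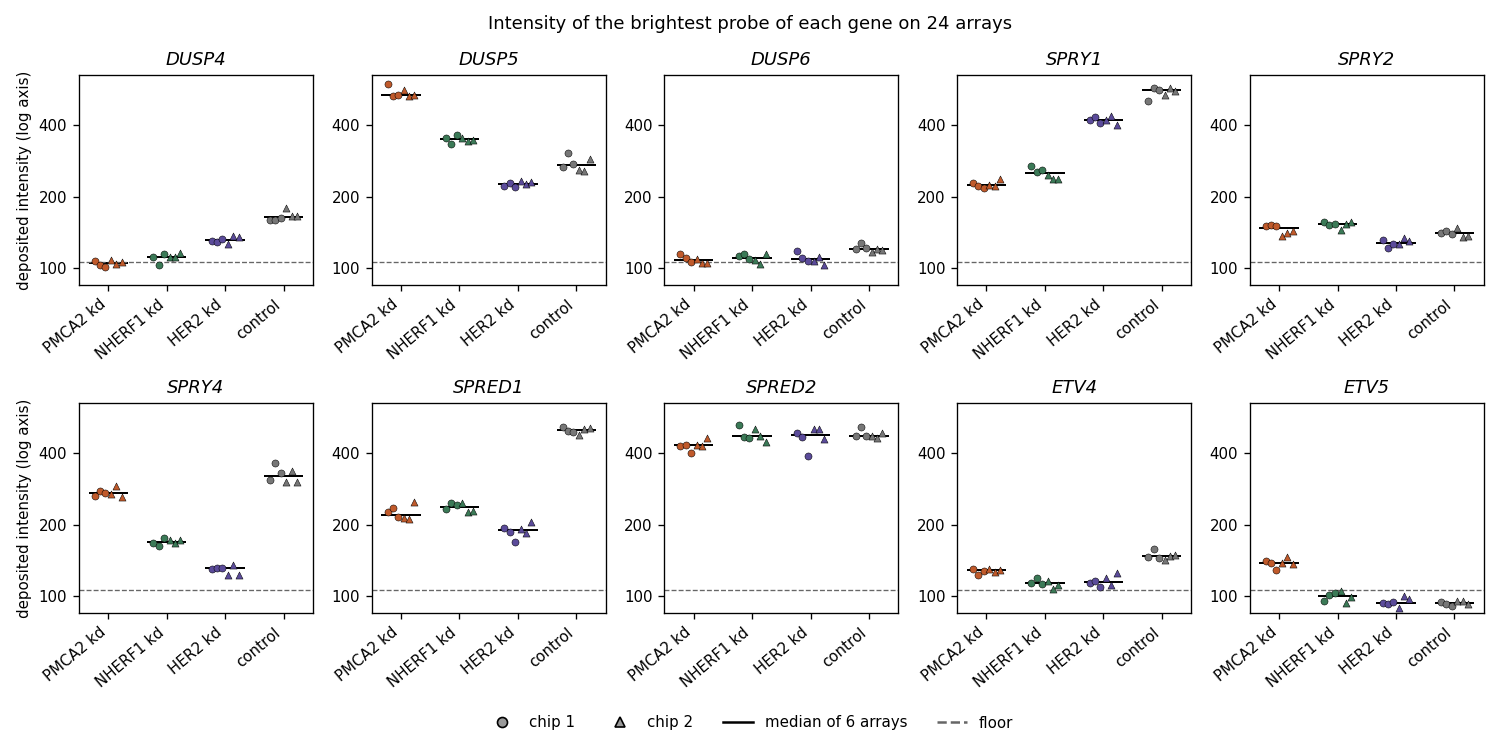
Deposited intensity (log axis) of the brightest probe of each of the 10 genes on each of 24 arrays, with the knockdown groups left of control, circles for chip 1, triangles for chip 2, a line at each group median and a dashed line at the floor of 106. SPRED1 and SPRY1 are lower in every knockdown than in control, SPRY4 is lowest in HER2 knockdown, and DUSP5 and ETV5 are highest in PMCA2 knockdown.

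Against control, 7 of the 10 genes fell and 2 rose in PMCA2 knockdown, 6 fell and 3 rose in NHERF1 knockdown, and 8 fell and 0 rose in HER2 knockdown. All 3 comparisons share the same 6 control arrays. Of the 12468 genes tested, 32.5% fell and 33.3% rose in PMCA2 knockdown, 30.3% fell and 35.0% rose in NHERF1 knockdown, and 31.2% fell and 34.8% rose in HER2 knockdown, so the members fell more often than the background in each and rose no more often than it. ETV5 is 1 of the 3 called higher in NHERF1 knockdown, below the floor, and 1 of the 2 called higher in PMCA2 knockdown. At 2-fold or more, 5, 5 and 2 of the 10 members were called in the PMCA2, NHERF1 and HER2 comparisons, beside 13.2%, 12.8% and 13.0% of all genes, so the HER2 count was near its background. The PMCA2 count includes ETV5, which passed the filter through those arrays alone, and is 4 of 9 without it. Without background correction the counts were 2, 2 and 2, beside 6.13%, 5.99% and 5.94% of all genes, so the 2-fold counts did not differ between the knockdowns there. The median difference of the members was -0.43, -0.75 and -0.48, beside 0.00, 0.02 and 0.02 over all genes tested. The median size without sign was 0.90, 0.76 and 0.48, beside 0.28, 0.28 and 0.29. These medians include ETV5, which had to differ in PMCA2 knockdown, and were not recomputed without it. They therefore do not rank the PMCA2 knockdown against the others.

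**Figure D2:**
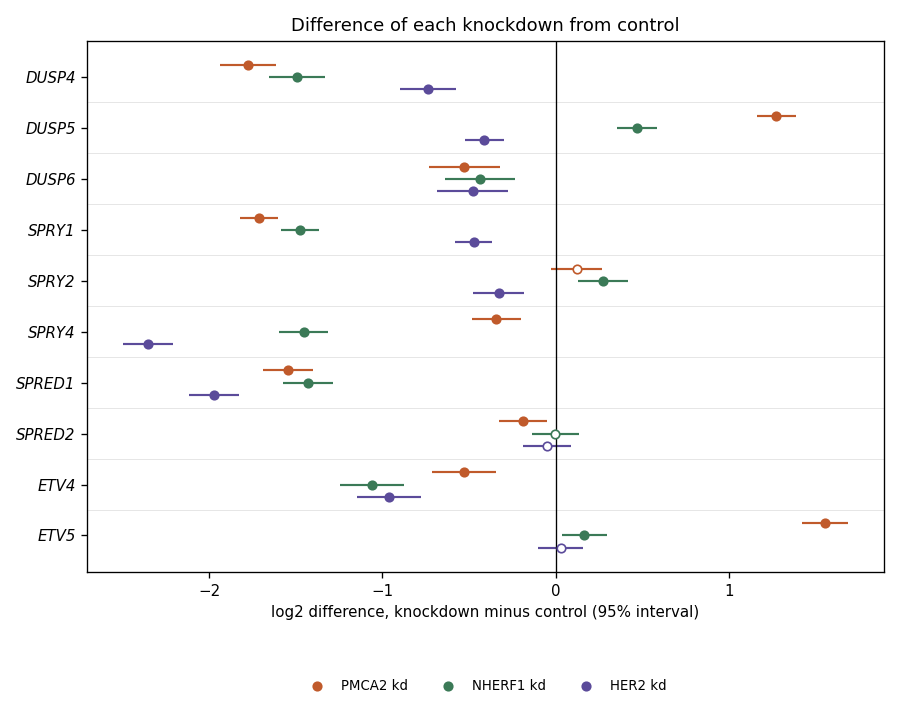
Log2 difference from control of each member in each of the 3 knockdowns, by the brightest probe, with bars for the 95% interval, filled points for an adjusted p under 0.05 and open points for the rest. SPRED1 is below 0 in all 3 knockdowns, SPRY4 is at -0.34 in PMCA2, -1.45 in NHERF1 and -2.35 in HER2 knockdown, and DUSP5 is above 0 in the PMCA2 and NHERF1 knockdowns only.

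Setting the knockdowns against each other showed where the genes of this family differed among them. DUSP5 was 1.68 ± 0.06 higher in PMCA2 than in HER2 knockdown (3.21-fold; adjusted p = 2.7e-19) and 0.80 ± 0.06 higher in PMCA2 than in NHERF1 knockdown (1.75-fold; adjusted p = 2.28e-12). SPRY4 was 2.01 ± 0.07 higher in PMCA2 than in HER2 knockdown (4.03-fold; adjusted p = 8.05e-19), and 0.90 ± 0.07 higher in NHERF1 than in HER2 knockdown (1.86-fold; adjusted p = 3.13e-11). SPRY1 went the other way, with a difference of -1.24 ± 0.05 for PMCA2 minus HER2 knockdown (2.36-fold) and a level 2.00-fold lower in NHERF1 than in HER2 knockdown (adjusted p = 8.99e-17 and 1.28e-14). DUSP4 was at least 1.96-fold lower in PMCA2 than in HER2 knockdown (adjusted p = 1.77e-11), and its NHERF1 minus HER2 difference was -0.76 ± 0.08 (adjusted p = 9.75e-09). SPRED1 was 0.43 ± 0.07 higher in PMCA2 and 0.55 ± 0.07 higher in NHERF1 than in HER2 knockdown (adjusted p = 1.14e-05 and 3.2e-07), and PMCA2 minus NHERF1 was -0.12, with a 95% interval of -0.26 to 0.02 (adjusted p = 0.169). SPRY2 was 0.45 ± 0.07 higher in PMCA2 and 0.60 ± 0.07 higher in NHERF1 than in HER2 knockdown (adjusted p = 6.35e-06 and 7.77e-08). Without background correction the differences between knockdowns were smaller with the same signs. For PMCA2 minus HER2 knockdown they were then 1.27 in DUSP5, 1.08 in SPRY4, -0.90 in SPRY1, 0.26 in SPRED1 and 0.18 in SPRY2, and -0.33 in DUSP4, which is less than its bound. For NHERF1 minus HER2 knockdown they were 0.40 in SPRY4, -0.74 in SPRY1, -0.25 in DUSP4, 0.33 in SPRED1 and 0.25 in SPRY2.

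Counted over the 10 genes, 6 were higher and 2 lower in PMCA2 than in HER2 knockdown, beside 25.6% and 28.1% of all genes. In NHERF1 against HER2 knockdown 4 were higher and 2 lower, beside 25.7% and 24.5%, and in PMCA2 against NHERF1 knockdown 4 were higher and 3 lower, beside 26.4% and 29.1%. Each count of genes higher in PMCA2 knockdown includes ETV5, which had to differ there, and is 5 and 3 of 9 without it. At 2-fold or more the counts were 5, 1 and 2, beside 4.62%, 3.48% and 4.26% of all genes. Without ETV5 the PMCA2 counts were 4 and 1, and without background correction all 3 counts were 2, 0 and 0. The 2-fold count of 5 takes DUSP4 at its fitted difference of -1.04, although the bound is 1.96-fold. Several of the smaller differences were lost within a chip: ETV4 was 0.43 ± 0.09 higher in PMCA2 than in HER2 knockdown (adjusted p = 0.000228, and 0.0507 on chip 2 alone; 0.14 without background correction). SPRY1 and SPRED2 were lower in PMCA2 than in NHERF1 knockdown, at -0.24 and -0.19, and DUSP4, at the floor in PMCA2 knockdown, was at least 1.16-fold lower (adjusted p = 0.000506, 0.0213 and 0.00417). On chip 1 alone the adjusted p was 0.0907 for DUSP4 and 0.0892 for SPRED2, and on chip 2 alone 0.203 for SPRY1 and 0.235 for SPRED2, so 1 of these 3 members was called on each chip. ETV4 in NHERF1 against HER2 knockdown did not pass the test, with a difference of -0.10 and a 95% interval of -0.28 to 0.09 (adjusted p = 0.427).

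**Figure D3:**
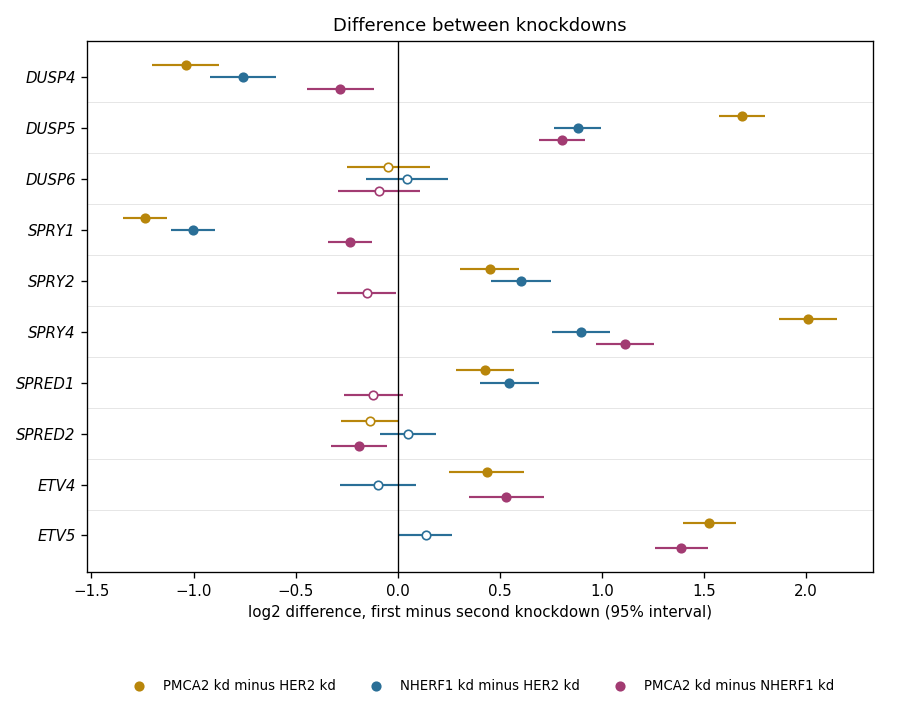
Log2 difference between each pair of knockdowns for the 10 members, first named minus second, with bars for the 95% interval, filled points for an adjusted p under 0.05 and open points for the rest. SPRY4 and DUSP5 lie far above 0 for PMCA2 minus HER2 knockdown, at 2.01 and 1.68, and SPRY1 lies below 0 at -1.24.

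By level, the members' own orders differed: 7 had their highest mean in control, 2 in PMCA2 knockdown and 1 in NHERF1 knockdown, and 4 had their lowest in PMCA2 knockdown, 4 in HER2 knockdown, 1 in NHERF1 knockdown and 1 in control. The 1 lowest in control is ETV5, which was below the floor in the 3 groups other than PMCA2 knockdown, so that its order among them is of background. SPRED2 counts as highest in control, where its mean did not differ by the test from that in NHERF1 knockdown (adjusted p = 0.992). ERBB2 was ordered control, HER2 knockdown, PMCA2 knockdown and NHERF1 knockdown, where the step between HER2 and PMCA2 knockdown did not pass the test (-0.07 for PMCA2 minus HER2, adjusted p = 0.241). ETV4 was the only member with its lowest mean in NHERF1 knockdown, where ERBB2 was lowest, and its difference from HER2 knockdown did not pass the test. That order is of the brighter ETV4 probe. The dimmer ETV4 probe had its lowest mean in HER2 knockdown (4.82, against 5.08 in NHERF1 knockdown).

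SPRY1, SPRY4 and ETV4 have 2 tested probes each. In SPRY1 the dimmer probe read 164 to 179 in PMCA2 knockdown, 176 to 194 in NHERF1 knockdown and 263 to 337 in HER2 knockdown, against 339 to 374 in control, and its differences from control were -1.61, -1.43 and -0.38. In SPRY4 the dimmer probe differed by -0.30 in PMCA2 and -0.91 in NHERF1 knockdown, where it was above the floor on 2 of 6 arrays, and was at least 1.95-fold lower in HER2 knockdown, with no array above the floor in HER2 knockdown. Its PMCA2 call was lost on chip 2 alone, at -0.01 (adjusted p = 0.922). In ETV4 the dimmer probe differed from control by -0.48 after PMCA2, -0.75 after NHERF1 and -1.01 after HER2 knockdown, and its NHERF1 minus HER2 difference of 0.26 (adjusted p = 0.0369) was opposite in sign to that of the brighter probe. The 6 untested probes belong to 5 genes and read between 89.0 and 116 on every array. Of these, the second ETV5 probe passed the floor on 3 arrays, all of PMCA2 knockdown.

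**Figure D4:**
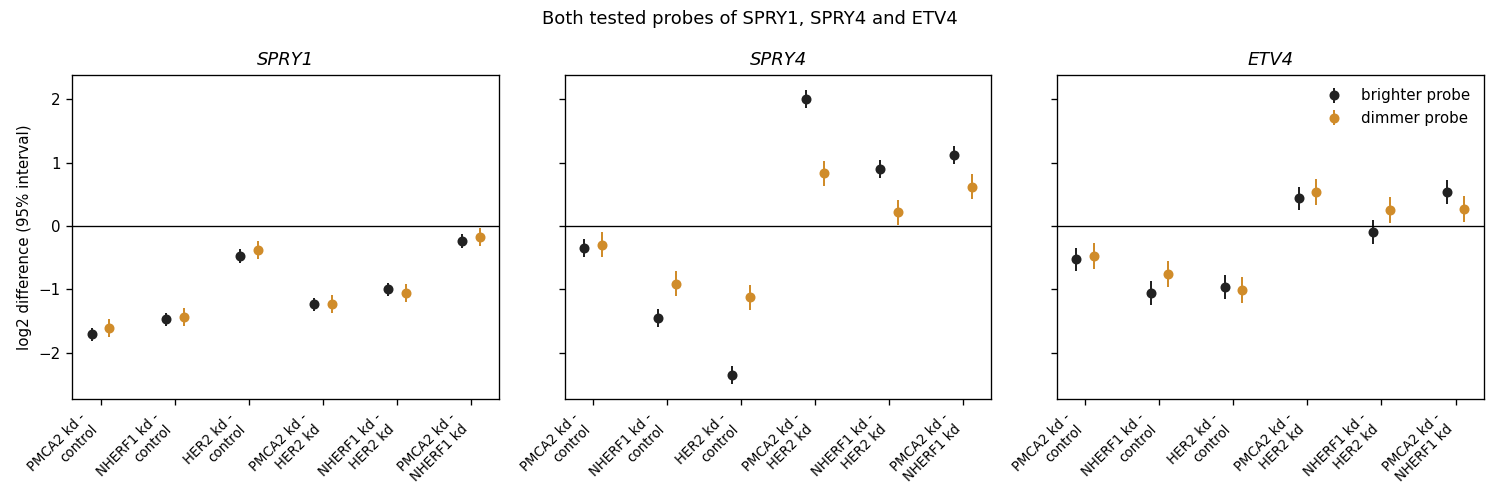
Log2 difference of the brighter (black) and the dimmer (orange) tested probe of SPRY1, SPRY4 and ETV4 in each of the 6 comparisons, first named minus second, with bars for the 95% interval. The signs match except for ETV4 in NHERF1 against HER2 knockdown.

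Other genes of the pathway were taken from lists chosen with results of these data known. Of 25 other ERK-response genes 21 were tested, and 8 rose and 7 fell in PMCA2 knockdown, 6 rose and 9 fell in NHERF1 knockdown, and 7 rose and 7 fell in HER2 knockdown. Over all genes tested, 33.3% rose and 32.5% fell in PMCA2 knockdown, 35.0% and 30.3% in NHERF1 knockdown, and 34.8% and 31.2% in HER2 knockdown. The median differences of the list from control were 0.09, -0.05 and 0.07, beside 0.00, 0.02 and 0.02 over all genes. FOS, an early ERK-induced transcription factor, rose by 2.62 ± 0.07 in PMCA2 knockdown, 2.82 ± 0.07 in NHERF1 knockdown and 4.60 ± 0.07 in HER2 knockdown (adjusted p = 4.52e-22, 8.93e-23 and 1.56e-27). CCND1, which encodes cyclin D1, differed by -1.27, -0.96 and -1.28 in the same order (adjusted p = 3.24e-18, 1.69e-15 and 2.65e-18). IER3 fell by 1.05 in PMCA2 knockdown, JUN fell by 1.26 in NHERF1 knockdown, and EPHA4 was at least 3.26-fold higher in HER2 knockdown. The mean log2 value of JUN was also lower in PMCA2 knockdown (7.67) and HER2 knockdown (7.84) than in control (8.22). Naming went by the smallest adjusted p in each comparison, so a gene named in 1 knockdown may have changed in another. Between knockdowns, FOS was lower in PMCA2 and in NHERF1 than in HER2 knockdown, by differences of -1.98 and -1.78.

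Within the cascade itself, 17 of 24 listed genes were tested, with 7 rising and 4 falling in PMCA2 knockdown, 6 and 5 in NHERF1 knockdown, and 4 and 7 in HER2 knockdown. The shares of all genes rising and falling were 33.3% and 32.5%, 35.0% and 30.3%, and 34.8% and 31.2% in the same order. GAB1, a docking protein, rose by 1.49, 1.40 and 1.64, with 1.00, 0.80 and 0.92 at its other probe. SHC1 rose by 0.53 in HER2 knockdown, with 0.47 at its other probe. KSR1, a scaffold of the cascade, was at least 1.99-fold higher in PMCA2 knockdown and at least 1.68-fold higher in NHERF1 knockdown. PTPN11, which encodes the phosphatase SHP2, fell by 0.78 in PMCA2 knockdown. Its mean log2 value was also lower in NHERF1 knockdown than in control, at 9.92 against 10.30. HRAS fell by 0.94 in NHERF1 knockdown and by 0.53 in HER2 knockdown, with differences of -0.59 and -0.45 at its other probe. In PMCA2 knockdown the mean log2 value of HRAS was lower too, at 8.32, against 8.91 in control. Of 7 other MAP kinase phosphatases 6 were tested, and 2 rose and 1 fell in each knockdown, beside the same shares of all genes. DUSP1 rose by 0.59 in PMCA2 and 0.38 in NHERF1 knockdown, DUSP8 differed by -0.67, -0.89 and -0.71, DUSP9 was at least 1.59-fold, 1.80-fold and 1.60-fold higher, and DUSP2 rose by 0.82 in HER2 knockdown. The median differences of the cascade were 0.09, 0.09 and -0.02, and of the phosphatases 0.07, 0.03 and 0.02.

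**Figure D5:**
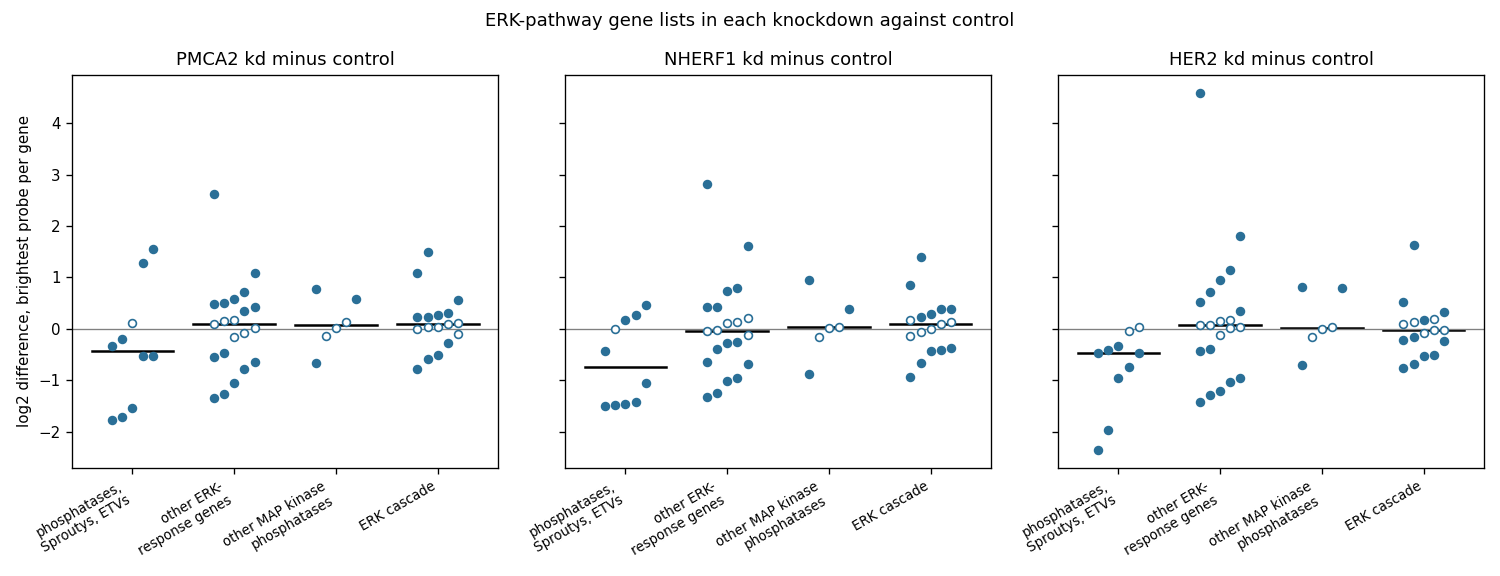
Log2 difference from control in the 3 knockdowns for the members, the other ERK-response genes, the genes of the cascade and the other MAP kinase phosphatases, 1 point per gene, filled where the adjusted p is under 0.05, with a line at each median. The members lie mostly below 0 and the other lists spread to both sides, with FOS at the top in each knockdown.

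The genes with the 4 group means most like those of a member were found by Euclidean distance over 4 groups, each centred on its own mean. For DUSP5 they were S100A8, MYO7A and BHLHE40, at 0.102, 0.143 and 0.151, against a median of 1.33 over all genes. For ETV4 they were ENPP1, OSBPL2 and LIMK2, at 0.0818, 0.0841 and 0.0851, against a median of 0.935. For SPRED2 they were CXCL3, PHF8 and CLBA1, at 0.0101, 0.0178 and 0.0187, against a median of 0.42, which is a nearly flat pattern. CXCL3 and PHF8 were below the floor on at least 3 of 6 arrays in each group, as was ENPP1 in the NHERF1 and HER2 knockdowns, so their likeness is partly between levels of background.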

How the data were processed

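The 10 genes and the other lists were chosen with earlier results of these data known. Gene expression in 24 SKBR3 arrays was used as the authors' deposited intensity per probe, on a linear scale and already normalized; the software behind it is not given in the sources used here. The values show no background subtraction (lowest 81.6, median 103), and sorted intensities differ by at most 0.406% between arrays. A second deposited table was not used, because its 24 signal columns match no label. Probes were named through the platform annotation and RefSeq gene table of GRCh38.p14: 30113 have 1 symbol, 8 several and 17202 none, and 30074 matched.

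With limma 3.58.1 in R 4.3.3, background was corrected by normexp against 433 olfactory receptor probes (offset 16), followed by quantile normalization and log2. The floor is their 95th percentile, and 22585 probes above it on at least 6 arrays were tested. The fit used all 24 arrays, with Benjamini-Hochberg adjustment over those probes, and each gene is represented by its brightest probe (12468 genes). Where the dimmer group lay at the floor, a fold is a lower bound, set by each array's lowest signal above it. The median standard error was 0.08 log2 units. The number of arrays limits the precision. Tested on simulated HER2 knockdown against control data over 22585 probes, 88 of 100 changes of 0.5 and 100 of 100 changes of 1 log2 unit were recovered, with 8 unchanged probes called. The simulation had independent noise and few changed probes, while 66% of genes were called in the data. Its recovery and its calls of unchanged probes therefore do not carry over to the data. Named by rule were all members, the targets, and the 3 genes nearest to the brightest member of each family. Of each other list, the 3 genes with the smallest adjusted p in each comparison with control were named. From those lists, only FOS is given between knockdowns. Alternatives covered background correction, offset, normalization, filter, floor, probe choice, arrays in the fit, chip and replicate number. DUSP4 sequence was not used here.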

Additional observations from a re-analysis of the deposited data

Results flagged for a closer look

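Among 52 groups of 6 values of the tested probes, 2 held an array far from the other 5, by Dixon's test at its 95% critical value. Chance gives about 1 in 20 such groups. Both were DUSP4. In NHERF1 knockdown, replicate 2, on chip 1, had a log2 value of 4.52 (an intensity of 103), and the nearest other array had 4.88, a gap of 0.634 of the range. In control, replicate 4, on chip 2, had 6.61 (an intensity of 179), and the nearest other array had 6.40, a gap of 0.639 of the range. DUSP4 in NHERF1 knockdown against control was -1.49 on chip 1 alone and -1.50 on chip 2 alone.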

How the results depend on the processing

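Over 12 alternatives, 859 of 888 values of the 78 probe results kept their direction and side of the threshold, 25 lost significance and 4 changed sign, 0 of the 4 among called results. The 4 were ETV4 in NHERF1 against HER2 knockdown on chip 1 alone (0.093) and SPRED2 on chip 2 alone, at 0.00052 in NHERF1 against control, 0.0543 in HER2 against control and -0.0537 in NHERF1 against HER2 knockdown. The alternatives of filter, floor, probe choice, only the compared arrays, and chip or replicate block reuse the same values in a balanced design. Their differences equal the main ones by construction, so direction could not change in them and only the adjusted p could move. Requiring all 24 arrays above the floor dropped DUSP4, DUSP6 and ETV5, leaving 1 gene higher in PMCA2 against control and 1 lower in each of the PMCA2 and NHERF1 against HER2 comparisons. With 6 arrays a comparison, chip 1 alone and chip 2 alone each gave 1 gene lower in PMCA2 against NHERF1 knockdown, against 3 with both. With an offset of 50 or no second quantile normalization, the ETV5 call in NHERF1 knockdown was lost (adjusted p = 0.17 and 0.053). The same replicate number did not pair the arrays (correlations of -0.0275 to 0.104), and with the replicate block the counts were the same, such as 8 lower in HER2 knockdown against control. At 2-fold or more, in the order of the PMCA2, NHERF1 and HER2 against control and the PMCA2 against HER2, NHERF1 against HER2 and PMCA2 against NHERF1 comparisons, the counts were 5, 5, 2, 5, 1 and 2, against 2, 2, 2, 2, 0 and 0 without background correction. An offset of 50 gave 3 in NHERF1 against control, 3 in PMCA2 against HER2 and 0 in the last 2 comparisons, requiring all 24 arrays gave 3 in PMCA2 against control, 3 in PMCA2 against HER2 and 1 in PMCA2 against NHERF1, and chip 1 alone gave 0 in NHERF1 against HER2. Signal close to background limits DUSP4, DUSP6, ETV4 and ETV5.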
